A study of Homo sapiens with 18 samples.

Results

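RNA levels in MOLM-13 cells kept for 24 h with IACS-9571 were compared with those kept for 24 h with DMSO, the solvent control. The comparison took every gene row with at least 1 FPKM in either group and left out the added spike-in RNAs, which kept 10814 of 23621 gene rows. FPKM counts read fragments per length of transcript and per size of the library, and each difference below is of log2(FPKM + 1), IACS-9571 minus DMSO. The nearest rows outside the rule were MORN4 (0.997 FPKM in DMSO, 0.971 FPKM with IACS-9571), FZD3 and CPEB3, and the nearest inside was FLJ27352, kept through DMSO with 0.884 FPKM in the IACS-9571 group.

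MOLM-13 is a human acute monocytic leukaemia line. The study sequenced 18 samples of it, 3 in each of 6 groups: DMSO, IACS-9571 or dTRIM24, each for 4 h or for 24 h. All groups were grown in the same serum-containing medium, and no source used here gives a dose. Whether the 3 samples of a group were separate cultures is not stated, and the protocol text names 24 h for all samples where titles and time points name 4 h or 24 h; the titles were followed. The table holds 1 mean per gene and group, so replicate errors and tests are lacking throughout, and depth is unknown. A call here means only a difference of at least 1 in size, that is 2-fold. In such bulk RNA, fewer cells of a type and less RNA per cell cannot be told apart.

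TRIM24 and BRPF1 are chromatin proteins whose bromodomains read acetylated lysines on histones, and IACS-9571 is a ligand that occupies both bromodomains. TRIM24 acts as a co-regulator of transcription, and BRPF1 is the scaffold that holds the acetyltransferases KAT6A and KAT6B with their adaptors. A bromodomain ligand covers the reading pocket and leaves the rest of the protein in place, whereas dTRIM24 joins such a ligand to one for VHL, which brings proteins to a ubiquitin ligase, and thereby marks TRIM24 for degradation.

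After 24 h the 2 groups were close. Of the 10606 kept RNAs that are neither small RNAs nor of a class without a poly(A) tail, called other RNAs here, 2 were past 2-fold higher (0.0189%) and 2 past 2-fold lower (0.0189%), 4 in all (0.0377%). The spread was narrow: 5% of these RNAs lay below a difference of -0.19 and 5% above 0.18, with a median of -0.02 and an SD of 0.12. The 25 spike-ins that reached 5 FPKM in every group had a median of -0.01 and the same SD of 0.12, with single values from -0.14 to 0.39. The median size of the difference was 0.074 for other RNAs and 0.051 for these spike-ins. Other RNAs below DMSO outnumbered those above it, 6107 (57.6%) to 4499 (42.4%), but 52.3% were above when each group was centred on its median. Of the 7614 other RNAs with at least 5 FPKM in either group, 64.7% were below, with a median of -0.04.

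Over all 10814 kept rows, 45 were past 2-fold higher (0.416%) and 83 past 2-fold lower (0.768%), 128 in all (1.18%). The remaining 43 and 81 of those calls were small RNAs or RNAs without a poly(A) tail, described further down. The same comparison at 4 h, which uses other libraries, had 22 other RNAs past 2-fold higher (0.203%) and 3 lower (0.0277%) of 10821. Column totals at 24 h were 821859 FPKM in DMSO and 771830 FPKM with IACS-9571, with spike-in medians of 31.0 and 30.8 FPKM. Of these totals, the short rows MIR1244-2 and MIR1244-3 held 155403 and 135978 FPKM. The 13 genes listed as marks of this line were all at 1 FPKM or more in DMSO, with summed levels of 2241 FPKM in DMSO and 2009 FPKM with IACS-9571. Of other sources, 0 of 11 erythroid, 0 of 5 megakaryocyte, 0 of 5 fibroblast and 0 of 5 epithelial marks reached 1 FPKM, and all 11 erythroid ones were under 0.2 FPKM. Among 7 lymphoid marks, NKG7 (20.4 and 16.5 FPKM) and PAX5 (3.70 and 4.24 FPKM) were present while the T cell genes CD3D and CD3E were under 1 FPKM.

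**Figure D1:**
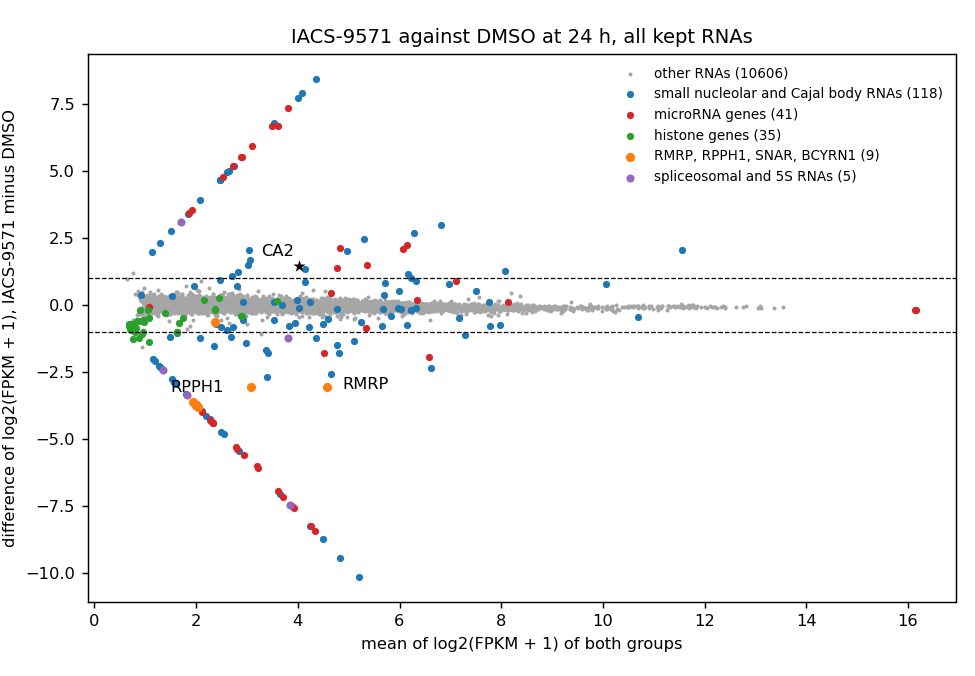
Difference of log2(FPKM + 1), IACS-9571 minus DMSO at 24 h, against the mean of log2(FPKM + 1) of both groups, 1 point per kept RNA, coloured by class; dashed lines mark a difference of 1 either way. The 10606 other RNAs form a narrow band with CA2 (black star) above it, while small RNAs and RNAs without a poly(A) tail make up most points past the lines.

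TRIM24 mRNA stood at nearly the same level in both groups, 13.97 FPKM in DMSO and 14.02 FPKM with IACS-9571. The labels give no protein measure, and a bromodomain ligand is not a deletion, so this level does not check the treatment. Of its relatives, TRIM28 (113 FPKM in both) and TRIM33 (7.66 and 7.86 FPKM) also differed by 0.03 or less. In the BRPF1 complexes, the scaffolds BRPF1 (5.57 and 6.08 FPKM), BRD1 (4.80 and 5.22 FPKM) and BRPF3 (4.55 and 4.60 FPKM) had differences of 0.11, 0.10 and 0.01. The acetyltransferases KAT6A (7.72 and 8.07 FPKM), KAT6B (6.23 and 6.48 FPKM) and KAT7 (19.3 and 19.2 FPKM) were within 0.06 of DMSO. The adaptor ING4, a reader of methylated histone H3, had the largest difference of the list, 0.15 (7.75 and 8.70 FPKM). In all, 10 of the 12 kept members were above DMSO and 2 below, beside 42.4% above over all other RNAs. The list median was 0.04, with 0 past 2-fold.

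CA2 had the largest positive difference of all other RNAs. It encodes carbonic anhydrase 2, the cytosolic enzyme that hydrates carbon dioxide to bicarbonate. Its level was 8.83 FPKM in DMSO and 26.2 FPKM with IACS-9571 at 24 h, 2.97 times the DMSO level and a difference of 1.47. At 4 h it was 9.79 FPKM in DMSO, 11.7 FPKM with IACS-9571 and 11.4 FPKM with dTRIM24, so all groups but those with a compound for 24 h lay between 8.83 and 11.7 FPKM. With dTRIM24 for 24 h it was 18.0 FPKM, against the same DMSO group. The median over other RNAs was 13.3 FPKM in that dTRIM24 column and 10.7 FPKM in DMSO. The difference of CA2 stayed past 2-fold in each of the 10 other settings tried, between 1.47 and 1.56. Settings that only select rows, such as no filter or a minimum of 5 FPKM, could not change it. The other 14 carbonic anhydrases were under 1 FPKM in DMSO and with IACS-9571 at 24 h, the highest being CA13 (0.986 and 0.970 FPKM).

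The other RNA past 2-fold higher was ARHGAP19-SLIT1, a read-through row, at 0.118 and 1.54 FPKM. Such a row shares exons with its neighbour genes, and how shared reads were divided is not stated. On the low side, RPL17-C18orf32, another read-through row, had 2.30 and 0.103 FPKM, and SLX1A had 13.2 and 5.68 FPKM (-1.09). SLX1A encodes a structure-specific endonuclease subunit and has a near-identical copy, so its value is uncertain; at 4 h it was 5.48 FPKM in DMSO and 3.15 FPKM with IACS-9571, and the high value was that of DMSO at 24 h. A bound of 1.5-fold gave 8 other RNAs higher (0.0754%) and 10 lower (0.0943%), and 61 (0.564%) and 120 (1.11%) over all kept rows. Among the 8 was CXCL10, an interferon-induced chemokine, at 2.16 and 4.80 FPKM (0.88), named after its value was seen.

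Of other RNAs that reached 5 FPKM in either group, the 15 with the largest positive differences included FADS2 and FADS1, genes of fatty acid desaturation. FADS2, the delta-6 desaturase that starts the making of long polyunsaturated fatty acids, had 15.1 FPKM in DMSO and 22.9 FPKM with IACS-9571 (0.57). FADS1, the delta-5 desaturase beside it, had 8.84 and 12.1 FPKM (0.42). Both were further apart at 4 h, where FADS2 had 21.1 and 56.6 FPKM and FADS1 had 10.6 and 32.4 FPKM. With dTRIM24 for 24 h they stood at 37.0 and 16.3 FPKM, in a column with a median over other RNAs of 13.3 FPKM, against 10.7 FPKM in DMSO.

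GLO1, glyoxalase 1, which detoxifies methylglyoxal, was by far the most abundant of the 15 highest, with 249 and 337 FPKM (0.43). Its 4 h levels were 265 FPKM in DMSO and 481 FPKM with IACS-9571. KIAA1551 had 18.3 and 26.6 FPKM at 24 h (0.52) and 18.1 and 29.3 FPKM at 4 h. For GLO1, KIAA1551 and the 2 desaturases the IACS-9571 group was thus the higher one at both times. NPY, the neuropeptide Y precursor, differed at 24 h (13.4 and 18.8 FPKM, 0.46) but hardly at 4 h (15.1 and 15.3 FPKM). NKD2, an antagonist of Wnt signalling, had 20.5 and 28.1 FPKM (0.44), and ALDOC, a glycolytic aldolase, had 3.95 and 5.92 FPKM (0.48). SNHG12, a host transcript of small nucleolar RNAs, had 4.79 and 7.78 FPKM (0.60). MED18, ZSCAN2, ZNF117 and the uncertain rows EEF1E1-MUTED, PMS2L2 and HYPK completed the 15, with differences from 0.40 to 0.52. Of the 15, 12 were also above DMSO at 4 h, though NPY by only 0.02 and ZSCAN2 with 7.13 FPKM in both groups. Over the 7611 other RNAs with at least 5 FPKM at both times, 45.8% were above at 4 h.

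**Figure D2:**
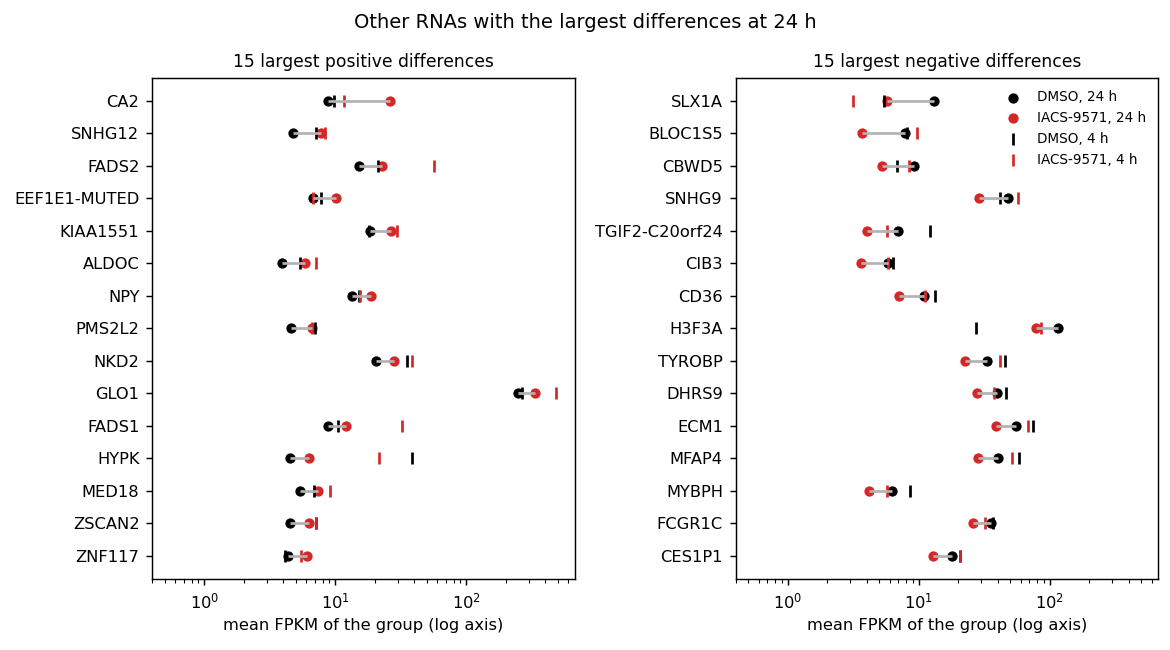
Mean FPKM (log axis) in DMSO (black) and IACS-9571 (red) at 24 h (points, joined by a line) and at 4 h (ticks) for the 15 other RNAs with the largest difference in each direction and at least 5 FPKM in the higher 24 h group. FADS2, FADS1, KIAA1551 and GLO1 have the red mark right of the black one at both times, and CD36, TYROBP and ECM1 have it left at both.

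CD36, TYROBP and FCGR1C were among the 15 lowest. CD36, a scavenger receptor for oxidised lipoproteins and fatty acids, had 10.9 FPKM in DMSO and 7.09 FPKM with IACS-9571 (-0.56). TYROBP, the adaptor DAP12 that carries signals of activating myeloid receptors, had 32.9 and 22.7 FPKM (-0.52). FCGR1C, a row of the high-affinity IgG receptor family with near-identical copies, had 35.9 and 25.8 FPKM (-0.46). All 3 also lay below DMSO at 4 h, by less: CD36 had 13.3 and 11.1 FPKM, TYROBP 45.2 and 41.8 FPKM, and FCGR1C 36.8 and 31.8 FPKM.

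ECM1, an extracellular matrix protein, had 55.7 and 39.0 FPKM (-0.50), and MFAP4, a microfibril-associated protein, had 39.9 and 28.3 FPKM (-0.48). DHRS9, a retinol and steroid dehydrogenase, had 39.9 and 27.7 FPKM (-0.51). These 3 too were below DMSO at 4 h, where ECM1 had 74.8 and 67.9 FPKM, MFAP4 57.9 and 51.4 FPKM, and DHRS9 46.3 and 37.8 FPKM. MYBPH, CIB3 and CES1P1 had differences of -0.48, -0.56 and -0.45. SNHG9, another small nucleolar RNA host, had 48.1 and 28.9 FPKM (-0.71) but 41.5 and 57.2 FPKM at 4 h.

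H3F3A, which encodes histone H3.3, had 115 and 78.7 FPKM (-0.54), and at 4 h the order was the reverse, with 27.2 FPKM in DMSO and 85.3 FPKM with IACS-9571. It has many processed copies, so its value is uncertain, as are those of SLX1A, CBWD5, BLOC1S5 and TGIF2-C20orf24, which have copies or overlap a neighbour. Without such rows the leading low genes were SNHG9, CIB3, CD36 and TYROBP. Of the 15, 11 were below DMSO at 4 h as well, though CES1P1 by only 0.02. Over the 7611 other RNAs with at least 5 FPKM at both times, 54.2% were below at 4 h.

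Promoters of FCGR1A (an Fc receptor), TYROBP and PRTN3 (a granule protease) are shown because their differences were low, FCGR1A and PRTN3 within the lists described next and TYROBP, which is in neither list, among the 15 lowest, and because the windows hold the letters GAGGAAG. This is a core sequence bound by PU.1 (SPI1), the transcription factor that controls much of the myeloid programme. SPI1 itself had 55.4 FPKM in DMSO and 51.6 FPKM with IACS-9571. Sequences are the 250 bases before the start site in RefSeq on GRCh38.p14, written 5′ to 3′ on the gene's strand, with capitals for GAGGAAG or its reverse complement CTTCCTC.
FCGR1A, chr1:149782444-149782693, plus strand: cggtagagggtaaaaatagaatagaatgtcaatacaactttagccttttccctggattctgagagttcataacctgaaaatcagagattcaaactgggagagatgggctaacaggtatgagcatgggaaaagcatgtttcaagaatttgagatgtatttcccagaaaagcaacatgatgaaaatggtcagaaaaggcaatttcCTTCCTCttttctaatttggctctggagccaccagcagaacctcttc
TYROBP, chr19:35908296-35908545, minus strand: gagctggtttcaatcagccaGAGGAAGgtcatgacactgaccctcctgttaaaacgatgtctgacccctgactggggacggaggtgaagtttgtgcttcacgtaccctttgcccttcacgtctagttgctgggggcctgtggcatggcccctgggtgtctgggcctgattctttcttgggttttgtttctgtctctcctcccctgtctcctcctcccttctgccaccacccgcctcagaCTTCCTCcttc
PRTN3, chr19:840749-840998, plus strand: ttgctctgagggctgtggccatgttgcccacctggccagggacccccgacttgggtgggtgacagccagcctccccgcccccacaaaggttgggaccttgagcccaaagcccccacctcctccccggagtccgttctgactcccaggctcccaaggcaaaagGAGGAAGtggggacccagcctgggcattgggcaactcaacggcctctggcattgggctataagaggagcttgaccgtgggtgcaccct
The 3 were chosen after their values were seen. GAGGAAG, on either strand, stood in 11.2% of all 35116 promoter windows and in 12.2% of the windows of kept other RNAs matched by symbol. Of the 18 monocyte list genes with a window, 10 held it in at least 1 window, as did 2 of 7 granule genes. Counted the same way, 16.2% of 7906 kept other genes held it. A match is only a match of letters and shows no binding.

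Genes of neutrophil granule proteins had the lowest median of the 35 lists with at least 5 kept members. All 12 members with at least 1 FPKM were below DMSO, from -0.43 to -0.06, with a median of -0.18 against -0.02 over all other RNAs. LTF, CAMP and LCN2, of the later specific granules, were under 1 FPKM and left out. MPO, myeloperoxidase, had 5.13 FPKM in DMSO and 3.55 FPKM with IACS-9571 (-0.43). PRTN3, proteinase 3, had 255 and 192 FPKM (-0.41), and LYZ, lysozyme, had 377 and 302 FPKM (-0.32). SRGN, serglycin, the proteoglycan that packs granule proteases, had 1328 and 1095 FPKM (-0.28).

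The other granule genes were nearer to DMSO. CST7, a cystatin, had 53.1 and 43.9 FPKM (-0.27), CTSG, cathepsin G, 1096 and 940 FPKM (-0.22), ELANE, neutrophil elastase, 685 and 620 FPKM (-0.14), and AZU1, azurocidin, 600 and 576 FPKM (-0.06). At 4 h the list median was -0.23, and 11 of the 12 were below DMSO, PRTN3 with 430 and 314 FPKM and ELANE with 1057 and 890 FPKM. The 24 h list median was between -0.19 and -0.12 in the other settings. None of the 12 was past 2-fold or 1.5-fold. With dTRIM24 for 24 h the median of these 12 against the same DMSO group was 0.24, in a column whose median over other RNAs was 13.3 FPKM, against 10.7 FPKM in DMSO and 10.6 FPKM with IACS-9571.

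Monocyte surface and effector genes were below DMSO in 16 of 20 kept members, beside 57.6% over all other RNAs. Their median was -0.08, with 0 past 2-fold. Behind CD36, the Fc receptor gene FCGR1A had 32.7 and 23.8 FPKM (-0.44) and LGALS3, galectin-3, had 18.1 and 15.3 FPKM (-0.23). CD38, an NAD-consuming surface enzyme, went the other way with 5.70 and 6.96 FPKM (0.25), as did ITGAM, the CD11b integrin chain, with 2.13 and 2.65 FPKM. The transcription factors of the myeloid lineage were closer, with a median of -0.06 over 11 genes whose sign was positive in 1 setting. CEBPD had 10.2 and 11.5 FPKM, CEBPB 3.30 and 3.71 FPKM, KLF2 2.09 and 1.78 FPKM, and IRF8 151 and 139 FPKM. The leukaemia's HOXA genes, MEIS1 and the cofactors of MLL split 10 above and 10 below, with a median of 0.02.

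**Figure D3:**
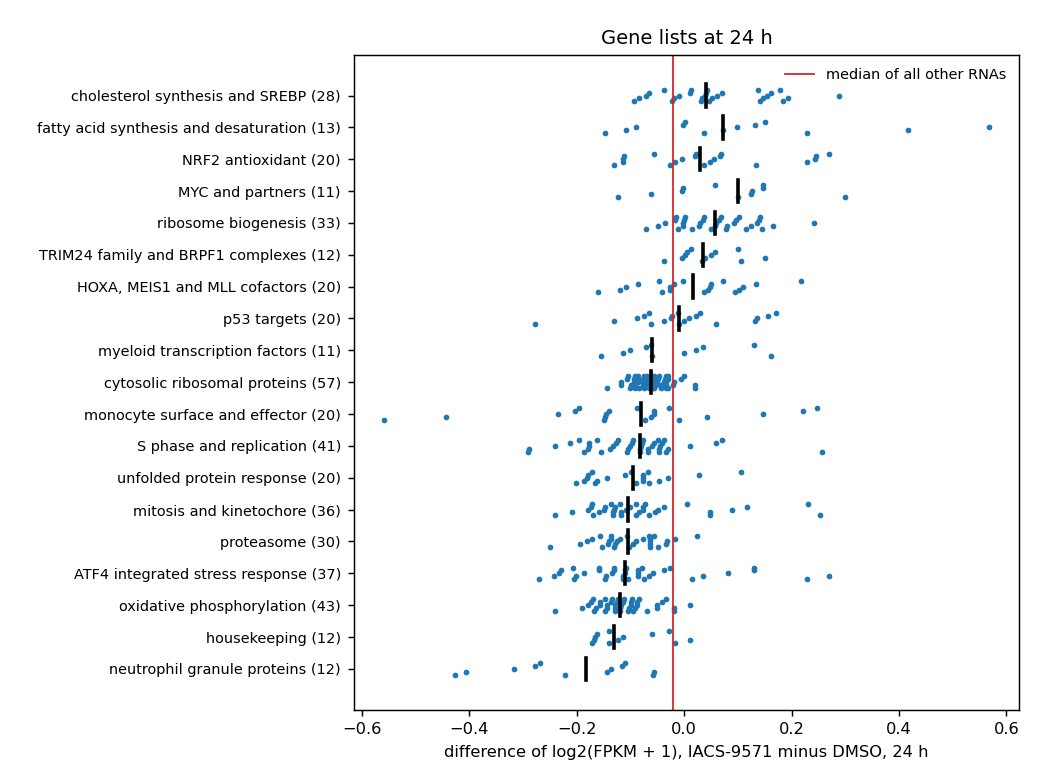
Difference of log2(FPKM + 1), IACS-9571 minus DMSO at 24 h, for the kept members of 19 gene lists, with their number in brackets; 1 point per gene, black bars for list medians, and the red line for the median of all other RNAs (-0.02). Granule protein genes lie lowest, all 12 left of zero, and the fatty acid list has FADS2 and FADS1 at its right edge.

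Sterol genes were near DMSO at 24 h. The list covers the mevalonate pathway, the steps from squalene to cholesterol and their SREBP-dependent control, and 28 members were kept. Their median was 0.04, with 20 above and 8 below, beside 42.4% above over all other RNAs, and 0 past 2-fold. At 4 h the list median was 0.96 with 14 past 2-fold. SQLE, squalene epoxidase, kept the largest difference, 0.29, with 21.3 and 26.2 FPKM at 24 h after 25.2 and 97.0 FPKM at 4 h. MVD and LSS, enzymes of the pathway, had 7.38 and 8.53 FPKM and 7.99 and 9.17 FPKM. HMGCS1, the enzyme that makes HMG-CoA, had 20.7 and 108 FPKM at 4 h and 18.7 and 19.3 FPKM at 24 h. In fatty acid synthesis, 9 of 13 members were above DMSO, with a median of 0.07; of the 3 kept desaturases all were above, with a median of 0.42, and ME1, malic enzyme, had 10.8 and 12.8 FPKM.

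Across the 17 other RNAs past 2-fold higher at 4 h with at least 5 FPKM, the median difference was 1.39 at 4 h and 0.05 at 24 h. Of these 17, 13 were above DMSO at 24 h, and the differences of the 17 ran from -0.54 for H3F3A to 0.57 for FADS2. Over the 7611 other RNAs with at least 5 FPKM at both times, Pearson's r between the 2 differences was 0.23 and Spearman's rho 0.22, as a description across genes, which are not independent. The times share no library, but each has its own DMSO group. Of the 100 RNAs with the largest 24 h differences, a set chosen after the values were seen, 73 were above DMSO at 4 h, against 45.8% of all. Of the 100 lowest, 81 were below DMSO at 4 h, against 54.2% of all.

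**Figure D4:**
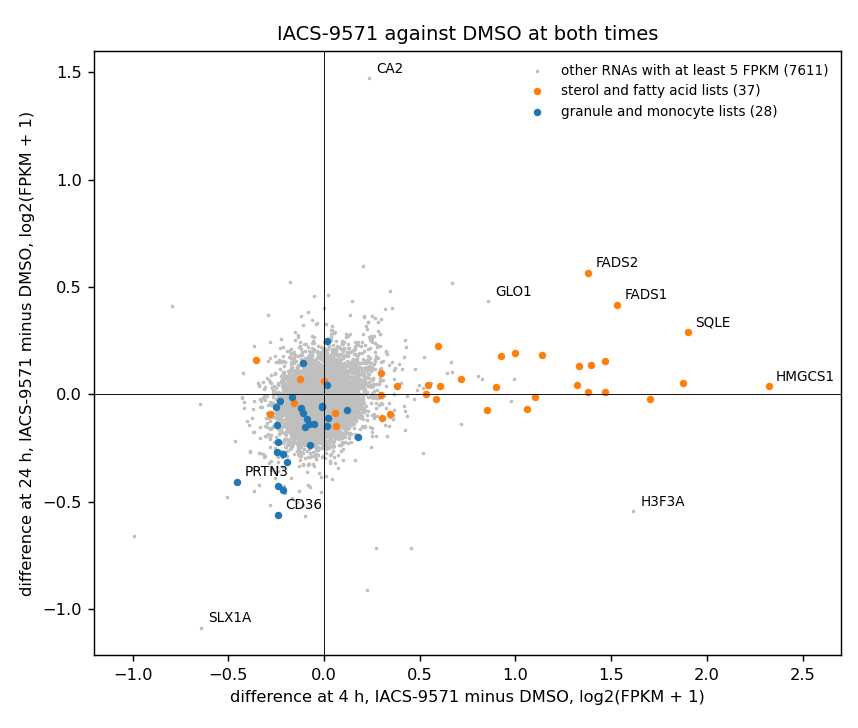
Difference of log2(FPKM + 1), IACS-9571 minus DMSO, at 4 h (horizontal) and at 24 h (vertical) for 7611 other RNAs with at least 5 FPKM at both times; orange marks the sterol and fatty acid lists and blue the granule and monocyte lists. Most orange points lie far right and near zero in height, CA2 lies near zero at 4 h and at 1.47 at 24 h, and most blue points lie below zero.

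Antioxidant genes under NRF2 had a median of 0.03 over 20 members, 12 above and 8 below. HMOX1, haem oxygenase 1, had 2.27 and 15.2 FPKM at 4 h and 1.42 and 1.86 FPKM at 24 h (0.24). NQO1, a quinone reductase, had 27.1 and 32.3 FPKM (0.24), and SLC7A11, the cystine transporter, 5.48 and 6.82 FPKM (0.27). The ATF4 list, amino acid synthesis, transport and charging genes of the integrated stress response, had 30 of 37 members below DMSO and a median of -0.11. Over all other RNAs 57.6% were below and 42.4% above, with a median of -0.02. PSAT1, of serine synthesis, had 194 and 161 FPKM (-0.27), ASNS, asparagine synthetase, 73.5 and 61.9 FPKM (-0.24), and the tryptophanyl-tRNA synthetase gene WARS 121 and 103 FPKM (-0.23). All 8 tRNA synthetases were below, and SLC7A11 was among the 7 members above. Of 20 genes of the unfolded protein response, 18 were below, with a median of -0.09 and MANF, a secreted factor of the endoplasmic reticulum, at 67.1 and 58.2 FPKM. Housekeeping genes were below in 11 of 12, with a median of -0.13. After quantile normalization the medians of the ATF4, unfolded protein and housekeeping lists were -0.03, -0.04 and -0.04.

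Growth genes did not all lie on the same side of DMSO. MYC, the transcription factor that drives ribosome production and growth, had 168 FPKM in DMSO and 207 FPKM with IACS-9571 (0.30), after 211 and 217 FPKM at 4 h. MYC and its partners had a median of 0.10, with 7 of 11 above. Ribosome biogenesis genes process ribosomal RNA or form RNA polymerase I. Of these, 24 of 33 were above, with a median of 0.06, beside 35.3% of other RNAs with at least 5 FPKM. Among them GNL3, nucleostemin, had 103 and 116 FPKM, NOP56 had 122 and 135 FPKM, and POLR1A, the largest subunit of RNA polymerase I, had 13.7 and 15.3 FPKM. PPAN had 25.0 and 29.7 FPKM and overlaps a read-through row. Of the ribosomal proteins themselves, 55 of 57 were below DMSO. Their median was -0.06, against -0.04 over all other RNAs with at least 5 FPKM. It was 0.00 after quantile normalization, and -0.03 with 14 above after trends on transcript GC content and length were taken out.

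Cell cycle genes were mostly just below DMSO, as were 64.7% of other RNAs with at least 5 FPKM. In S phase and replication 37 of 41 were below, with a median of -0.08: CCND3, cyclin D3, had 93.1 and 75.8 FPKM (-0.29), TK1, thymidine kinase, 48.6 and 39.6 FPKM (-0.29), and RRM2, a subunit of ribonucleotide reductase, 86.8 and 73.2 FPKM (-0.24). E2F8, a repressor of the E2F family, was above with 19.0 and 22.9 FPKM (0.26). In mitosis 29 of 36 were below, with a median of -0.10. UBE2C, a ubiquitin-conjugating enzyme that works with the anaphase-promoting complex, had 108 and 91.4 FPKM (-0.24). CENPA, the centromeric histone, had 22.2 and 19.1 FPKM (-0.21). The long kinetochore genes CENPF (15.3 and 18.4 FPKM, 0.25) and CENPE (2.75 and 3.40 FPKM, 0.23) were above, as they were at 4 h.

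Abundant genes of all cells shared this small offset. Oxidative phosphorylation genes were below in 42 of 43 (median -0.12), proteasome subunits in 29 of 30 (median -0.10) and housekeeping genes in 11 of 12 (median -0.13). All other RNAs with at least 5 FPKM, as these have, were below in 64.7% (median -0.04). Differences moved with transcript length and base content: over 9865 other RNAs with a reference value, Spearman's rho was 0.16 with length and 0.19 with GC content, with bin medians from -0.06 for the shortest to 0.00 for the longest transcripts. Medians after both trends were taken out were -0.09, -0.06 and -0.10 for these 3 lists and -0.15 for granule genes. After quantile normalization they were -0.01, -0.02 and -0.04, and -0.12 for granule genes. What part depth or RNA quality has in these offsets was not tested. Of 35 lists with at least 5 kept members, 26 had a median of the same sign in all 10 settings. Dropping the filter, or leaving out small and tailless RNAs, changes no value of an other RNA. Those settings could therefore not move the median of a list made of other RNAs.

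The calls past 2-fold were nearly all of small RNAs and of RNAs without a poly(A) tail. Of 1802 such rows 208 were kept and 124 called, 43 higher and 81 lower, and 79 of the 124 had a group under 0.2 FPKM. The commonest value of the table, 0.105 FPKM in DMSO and 0.0998 FPKM with IACS-9571 over 6059 rows, lies at that level, so these rows read as absent in 1 group mean. Their values are given below with no fold. A row near that value in 1 group entered the comparison only through the other, and had to differ. Of the 124, 16 were also past 2-fold in the same direction at 4 h and 32 in the opposite direction.

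Among microRNA gene rows, 4 are described with their mature sequences, since the rows sit on precursor genes and do not tell arms apart; they were chosen among the 15 largest differences each way after their values were seen. For MIR196B, MIR25 and MIR29C the other arm is not printed. Whether any mature microRNA was present was not tested, and the values do not show it. The 4 rows are 84 to 88 bases long, and FPKM divides by length, so few fragments can give a high value. Capitals mark the seed, bases 2 to 8, which pairs with target RNAs, and sequences and positions are from RefSeq on GRCh38.p14.
hsa-miR-196b-5p, chr7:27169528-27169549, minus strand: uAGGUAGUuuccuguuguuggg
hsa-miR-25-3p, chr7:100093571-100093592, minus strand: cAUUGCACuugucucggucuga
hsa-miR-29c-3p, chr1:207801865-207801886, minus strand: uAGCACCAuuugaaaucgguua
hsa-miR-142-5p, chr17:58331283-58331303, minus strand: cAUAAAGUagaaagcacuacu
hsa-miR-142-3p, chr17:58331245-58331267, minus strand: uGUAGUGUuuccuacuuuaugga
MIR196B, a gene within the HOXA cluster, had 0.103 FPKM in DMSO and 178 FPKM with IACS-9571, with 49.1 FPKM in dTRIM24 at 24 h and 0.104 FPKM or less in all 4 h groups. MIR25 had 0.103 and 112 FPKM, and MIR29C 0.104 and 65.6 FPKM, with 106 and 307 FPKM in dTRIM24 at 24 h. MIR142, a microRNA of blood cells, had 134 FPKM in DMSO and 0.0998 FPKM with IACS-9571, and no more than 0.105 FPKM in the other 4 groups. These rows were thus above the shared low value in 1 or 2 of the 6 groups. Of 33 microRNA rows called, 32 matched RefSeq, and their 39 mature sequences, with copies counted once, had 39 different seeds. MIR1184-1 and MIR1184-2, both lower, are copies with the same mature sequence. HOXA9 and MEIS1 mRNAs stood at 25.9 and 25.4 FPKM and at 10.4 and 11.3 FPKM.

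Small nucleolar RNAs, which guide methylation and pseudouridylation of ribosomal RNA, split in the same way. Of 110 kept rows 27 were past 2-fold higher and 39 lower, from SNORD45C (0.105 and 379 FPKM) to SNORD82 (1233 and 0.101 FPKM). The 30 rows with at least 5 FPKM in all 6 groups had a median of -0.12, with 6 past 2-fold higher and 5 lower. Even there values were far apart: SNORD116-22 had 39.5 and 315 FPKM, SNORD76 1474 and 6070 FPKM, and SNORA24 60.6 and 9.27 FPKM. These 3 were chosen after their values were seen.

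RMRP and RPPH1 were low with IACS-9571 and present in every group. They are the RNA parts of RNase MRP, which cuts ribosomal RNA precursors, and RNase P, which matures the 5′ end of transfer RNAs. RMRP had 67.1 FPKM in DMSO and 7.25 FPKM with IACS-9571 at 24 h (-3.05), and RPPH1 had 23.5 and 1.95 FPKM (-3.05). At 4 h the order was the reverse, with 12.7 and 26.2 FPKM for RMRP and 2.01 and 10.7 FPKM for RPPH1. dTRIM24 had 1196 and 493 FPKM at 4 h and 20.2 and 8.57 FPKM at 24 h. The IACS-9571 group at 24 h was thus the lowest of 6 for both RNAs, and DMSO at 24 h the highest of the 5 groups other than dTRIM24 at 4 h. The 10 protein subunits of these enzymes had a median of -0.04, from RPP38 at -0.24 (18.5 and 15.5 FPKM) to POP1 at 0.13 (8.37 and 9.25 FPKM).

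Genes of replication-dependent histones, whose messages end in a stem-loop in place of a poly(A) tail, had a lower sum with IACS-9571. Summed over 72 rows their level was 100 FPKM in DMSO and 62.0 FPKM with IACS-9571 at 24 h. In the other groups the sums were 75.3 FPKM (DMSO, 4 h), 97.6 FPKM (IACS-9571, 4 h), 920 FPKM (dTRIM24, 4 h) and 78.6 FPKM (dTRIM24, 24 h). The sum with IACS-9571 at 24 h was thus the lowest of the 6. HIST1H3B, an H3 gene, had 2.37 and 0.306 FPKM (-1.37), HIST1H4E, an H4 gene, 1.61 and 0.0916 FPKM, and HIST2H4A, an H4 gene of another cluster with a near-identical copy, 3.40 and 1.16 FPKM (-1.02). HIST2H2AC, an H2A gene, stood above DMSO with 3.98 and 4.95 FPKM. Of 35 kept histone rows, 23 were kept only through DMSO, HIST1H3B and HIST1H4E among them, and had to be lower. Of the 12 with at least 1 FPKM in both groups, 3 were above DMSO and 9 below, from -1.02 to 0.26.

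SNAR genes, short RNA polymerase III transcripts, were at the shared low value with IACS-9571 at 24 h: SNAR-A6 had 14.1 FPKM in DMSO and 0.0976 FPKM with IACS-9571. At 4 h it had 0.0945 FPKM in DMSO and 5.51 FPKM with IACS-9571, the reverse order, while SNAR-B1 had 18.4 and 6.98 FPKM, the same order as at 24 h. All 6 kept SNAR rows entered through DMSO only, and 4 of them hold the same values, as near-identical copies can. BCYRN1, another RNA polymerase III transcript, had 5.41 and 3.15 FPKM (-0.63), and 2.11 and 1.61 FPKM at 4 h. RMRP, RPPH1 and the histone sum were below DMSO at 24 h and above it at 4 h, and BCYRN1 and SNAR-B1 were below at both times. S phase genes had a median of -0.08, and any link of this to the histone sum was not tested. The part of RNA selection or library preparation in the differences of these tailless RNAs was not tested.

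**Figure D5:**
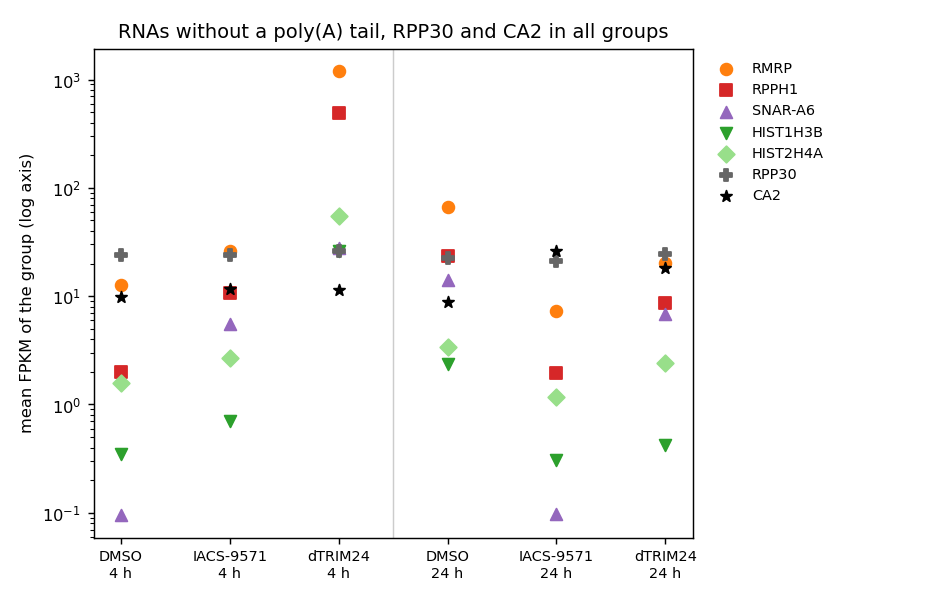
Mean FPKM (log axis) of RMRP, RPPH1, SNAR-A6, HIST1H3B and HIST2H4A, which lack a poly(A) tail, and of the polyadenylated RPP30 and CA2, in the 6 groups. The 5 tailless RNAs, picked after their values were seen and of which SNAR-A6 and HIST1H3B were kept only through DMSO, are lower with IACS-9571 than with DMSO at 24 h and higher at 4 h, RPP30 stays between 20.9 and 26.2 FPKM, and CA2 is highest with IACS-9571 at 24 h.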

How the data were processed

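RNA of MOLM-13 cells was measured in 18 samples, and 6 of them, 3 with IACS-9571 and 3 with DMSO for 24 h, make up the comparison. The deposited table holds FPKM with 1 column per group, named as a mean; the submitters' processing notes name TopHat2, Cuffnorm and hg19 for what the authors did. No source used here gives tool versions, annotation, library selection, strand handling or depth per sample. ERCC spike-ins were added after normalization to cell number, per the labels' protocols. Unused per-sample columns numbered 0.

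Spike-ins (92 of 23713 rows) were left out, rows with at least 1 FPKM in either group were kept, and 1 was added before log2. The planned limma test needs single libraries, so differences of means with a 2-fold bound were used, with no test. Small RNAs and RNAs without a poly(A) tail (snoRNA, scaRNA, microRNA, spliceosomal and 5S rows, SNAR, RMRP, RPPH1, HIST genes, TERC, BCYRN1) were set apart by name; a gene counted as near the shared low value under 0.2 FPKM.

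The members and lists were chosen with earlier results of these data known, and the counts of list members are descriptions. The rule for named genes took the TRIM24 list, up to 15 RNAs in each direction beyond 2-fold and 5 FPKM, up to 15 other RNAs each way whether past 2-fold or not, up to 4 members of each list with the largest differences, and the carbonic anhydrase and RNase P and MRP lists. Other names were chosen after their values were seen: members of a list beyond its 4 largest, MIR223, the first rows outside and inside the filter, and genes shown for 4 h values or as markers.

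The alternatives were pseudocounts of 0.1 and 0.5, no filter, a minimum of 5 FPKM, median centring, spike-in rescaling, quantile normalization, removal of a polynomial trend (order 3) on transcript GC content, leaving out small and tailless RNAs, a 1.5-fold bound and, added after the data were seen, removal of trends on GC content and length together. GENCODE transcripts of another build gave GC content and length by symbol for 93.0% of other RNAs and no coordinates. The scripts were tested on simulated data, and no result rests on that. The tools were pandas 2.3.3, numpy 2.4.6, matplotlib 3.10.9 and scipy 1.17.1 under Python 3.11.15.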

Additional observations from a re-analysis of the deposited data

How the results depend on the processing

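Over all kept rows, counts past 2-fold lay between 42 and 51 higher and between 67 and 105 lower in the other settings, against 45 and 83, and a 1.5-fold bound gave 61 and 120. Only 2 and 2 were left without small RNAs and RNAs without a poly(A) tail. Of other RNAs, 2 higher and 2 lower became 6 and 8 with a pseudocount of 0.1, 1 and 1 with a minimum of 5 FPKM, and 8 and 10 with a 1.5-fold bound; with the remaining settings they were 2 or 3 each way. Median centring put 52.3% of other RNAs above DMSO, quantile normalization 53.4% and removal of the GC trend 48.2%, against 42.4% as deposited. Of 928 values of lists and named genes under other settings, 852 moved by less than the SD of the spike-in differences (0.12), used because no replicate spread is known, 76 moved by more, and 0 reversed a value past 2-fold. Settings that only select rows leave the value of a single gene as it was, and they are counted among these. Signs of list medians did differ in at least 1 setting for 9 of 35 lists.

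No paired analysis was possible because the table holds 1 mean per group and no value per replicate. Leaving out single replicates was not run for the same reason. The depth behind each mean is unknown, so no counting interval or detection limit can be given.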

Other observations

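Some gene groups not described above also held single genes apart from the rest. Over all other RNAs, 57.6% were below DMSO and 42.4% above. The counts below in the next 2 lists were near that share. Among 31 kept genes of hypoxia and glycolysis, 14 were above DMSO and 17 below, with a median of -0.03. Beside ALDOC, NDRG1, a stress-induced gene, had 8.15 FPKM with IACS-9571, a difference of 0.39, and HK1, hexokinase 1, had 5.43 and 6.82 FPKM (0.28). VHL, which marks HIF-alpha for degradation, had 6.94 and 9.04 FPKM (0.34), and 8.75 and 10.4 FPKM at 4 h. Of 20 genes of FLT3, RAS and STAT5 signalling, 13 were below DMSO, with a median of -0.02. SOCS1, a feedback inhibitor of cytokine signalling, had 3.20 and 2.29 FPKM (-0.35), with 4.22 and 4.34 FPKM at 4 h.

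Among p53 targets, 9 were above and 11 below, with CDKN1A, the inhibitor p21, at 71.1 and 58.5 FPKM (-0.28). The BCL2 family had 8 of 14 members below, beside 57.6% of all other RNAs. BIK, a death-promoting member, had 58.5 and 47.9 FPKM (-0.28), and BCL2A1, a survival member, had 4.18 and 3.31 FPKM (-0.27). Of 17 immediate early genes 11 were below, JUND with 82.8 and 66.8 FPKM (-0.31) after 110 and 123 FPKM at 4 h. Among LXR targets and sterol efflux genes, 6 of 8 were above DMSO, and APOC1, an apolipoprotein, was below with 3.66 and 2.19 FPKM (-0.55). Of 18 interferon genes 11 were above, IFI6 with 1.31 and 1.73 FPKM and IRF7, a regulator, below with 3.37 and 2.67 FPKM (-0.25). NEAT1, the nuclear RNA that builds paraspeckles, had 1.63 and 2.19 FPKM at 24 h (0.28) and 1.64 and 2.16 FPKM at 4 h (0.26). None of these lists had a member past 2-fold. The counts below DMSO of the p53, BCL2 and immediate early lists were near the 57.6% of all other RNAs.

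The rows MIR1244-2 and MIR1244-3 held 18.9% of all FPKM of the DMSO column and 17.6% of the IACS-9571 column at 24 h. Each is 85 bases long, and their values were near-equal (77231 and 78171 FPKM in DMSO). FPKM divides by length, so this is a share of FPKM and not of RNA, and the source of these reads was not tested. MIR223, a microRNA gene of myeloid cells, stood at 0.0995 FPKM in DMSO at 24 h and 0.103 FPKM in dTRIM24 at 4 h, with 10.9 FPKM in IACS-9571 at 24 h and, at 4 h, 10.4 FPKM in DMSO and 11.6 FPKM in IACS-9571.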
